A study of Mus musculus with 10 samples.

Results

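The genes described here are 10 genes of the glucocorticoid and stress hormone response, taken by symbol from the 53379 genes counted in every library. They were listed by name as the pair of corticosteroid receptors (Nr3c1, Nr3c2), an enzyme that regenerates active hormone (Hsd11b1), genes that glucocorticoids induce (Fkbp5, Tsc22d3, Sgk1, Per1, Zbtb16), and corticotropin-releasing hormone with a receptor for it (Crh, Crhr1). Each of the 10 symbols matched 1 Ensembl identifier, and 9 of the 10 passed edgeR's filter on low counts, Crh being the exception.

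The study asked whether cells of the mouse hippocampus that are active in a pleasant or an unpleasant experience differ in their RNA. The 10 RNA-seq libraries came from male mice aged 5 weeks, of which 8 were pooled per condition by the labels, after hippocampal tissue had been dissociated and EYFP cells sorted. The study's Methods describe sorted cells and its Results nuclei. Its Methods name Fos-CreER and wild-type C57BL/6 mice, at an age above 5 weeks, without linking either to the sequenced mice. The tag came from AAV9-c-Fos-tTA with AAV9-TRE-ChR2-EYFP, so the c-Fos promoter and not a neuronal promoter drove the transactivator, which doxycycline blocks until the diet is changed. Aversive libraries (n = 2, numbered 1 and 3) came from mice given 4 foot shocks of 1.5 mA for 2 s. Appetitive libraries (n = 2) came from males that met a female for 1 h by the labels, a time the Methods give differently. Neutral libraries (n = 3) came from mice placed in the same conditioning cage with neither stimulus. Mock libraries (n = 3) came from home cage mice, which the study calls an untagged control from fewer animals, although the labels describe all samples as carrying the ChR2-YFP transgene. Whether each library had a pool of its own is not stated in the sources used here, so n counts libraries, and a p measures the spread between these libraries.

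Corticosterone, the main glucocorticoid of mice, is released after hypothalamic corticotropin-releasing hormone drives the pituitary and adrenal glands. In cells it binds the high-affinity mineralocorticoid receptor and the lower-affinity glucocorticoid receptor, both abundant in the hippocampus, which then enter the nucleus and act on transcription at glucocorticoid response elements. Fkbp5, Tsc22d3, Sgk1, Per1 and Zbtb16 are widely used as readouts of that action, and Fkbp5 protein feeds back by lowering the receptor's affinity for hormone.

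Total counts per library ranged from 16968588 (appetitive 2) to 67650693 (neutral 2). Levels are given as normalized CPM, counts scaled to each library's TMM-adjusted total, and 3 counts, taken as the smallest level the depth can show, equalled 0.0347 CPM in neutral 2 and 0.235 CPM in appetitive 1. Molecules carried no identifiers, so this floor and the counting intervals below cover counting error only. Neutral libraries were made with a different kit and read as 100 bp pairs, whereas the other 7 were read as single 40 bp reads, so an effect of the kit and of the neutral experience cannot be told apart. The number of genes with at least 1 count was 23245, 20596 and 30899 in mock, 16849 and 24189 in aversive, 14144 and 14658 in appetitive, and 18830, 18677 and 19902 in neutral libraries. The lowest 3 of these numbers belonged to both appetitive libraries and to aversive 1. Spearman's rho over the tested genes was 0.91 to 0.922 between mock libraries but 0.637 between the aversive and 0.606 between the appetitive pair, so replicates in these groups stood far apart.

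Markers gave limited backing to a neuronal identity of the sorted material. The 14 neuronal markers summed to 480, 290.04 and 324 CPM in mock, 858 and 749 CPM in aversive, 1307 and 209.6 CPM in appetitive, and 89.8, 137 and 96.04 CPM in neutral libraries. Snap25 was the most abundant over all libraries together, though not in each. The genes said below to lead a marker list are also named over all libraries together. Among genes that mark hippocampal excitatory neurons, Neurod2 and Mpped1 were at 0 in aversive 1 and in both appetitive libraries, Neurod6 in both appetitive libraries, and Calb1 in aversive 1 and appetitive 1. Prox1 was also at 0 in aversive 1 and Wfs1 in appetitive 2. Of these 6 genes, Mpped1 was at 0 in neutral 1, Prox1 and Neurod2 were at 0 in neutral 3, and all were detected in every mock library. Zbtb20, Etv1, Dkk3 and Bok had counts in all 10 libraries, Zbtb20 at 82.7 CPM in appetitive 1 to 639 CPM in aversive 3, and Prox1 reached 316 CPM in appetitive 2. The 12 oligodendrocyte markers summed to between 7593 and 807378 CPM, above the neuronal sum in every library. Markers of endothelial cells (12, led by Bsg), oligodendrocyte precursors (8, led by Olig1) and immediate early or dissociation genes (16, led by Fos) summed to 1579 to 13774, 66.9 to 848 and 952 to 8639 CPM. In these bulk libraries, fewer cells of a type and less RNA per cell cannot be told apart.

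None of the 9 tested genes was called in any of the 6 comparisons by edgeR's quasi-likelihood test with Benjamini-Hochberg adjustment at an adjusted p under 0.05. Between aversive and neutral libraries 0 of 9 were called, beside 0.0405% of all 19754 tested genes, 1 of 9 had an unadjusted p under 0.05, beside 19.1% of all, and DESeq2 called 0, beside 3388 of 20890 genes. Between appetitive and neutral libraries 0 of 9 were called, beside 6.17% of all tested genes, 3 of 9 had an unadjusted p under 0.05, beside 29.3%, and DESeq2 called 3, beside 29.0% of its genes. Between appetitive and aversive libraries the numbers were 0 called, beside 1.8% of all genes, 1 of 9 at an unadjusted p under 0.05, beside 20%, and 2 called by DESeq2, beside 23.0%. Those genes came from the same 10 libraries, and the comparisons share groups, so their counts are not independent.

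Against mock the counts were also 0. For aversive libraries, 0 of 9 genes were called, beside 0% of all tested genes, 0 had an unadjusted p under 0.05, beside 9.96%, and DESeq2 called 0, beside 1476 of 17758 genes. For appetitive libraries, 0 of 9 were called, beside 1.98% of all, 2 had an unadjusted p under 0.05, beside 23.8%, and DESeq2 called 3, beside 28.0% of its genes. For neutral libraries, 0 of 9 were called, beside 0.0861% of all, 2 had an unadjusted p under 0.05, beside 13.5%, and DESeq2 called 0, beside 1589 of 20890 genes. With so few libraries and a coefficient of variation between them of 122%, a gene that missed the threshold is not shown to be alike between groups.

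All libraries of a group lay on the same side of the other group for 2 of 9 genes between aversive and neutral (33.7% of all tested genes), 3 between appetitive and neutral (38.6%), and 2 between appetitive and aversive (28.4%). Against mock this held for 1 of 9 genes in aversive (36.1% of all), 4 in appetitive (48.7%), and 3 in neutral libraries (32%). In each of these cases the values lay below mock. Against mock, the median difference of every gene tested was -0.13 log2 for aversive, -1.45 for appetitive and 0.08 for neutral libraries, and the appetitive median ran from -4.77 to 0.20 over the alternatives. The median of the 9 genes was -0.66, -1.47 and -1.81 in the same order, or -0.66, -0.99 and -1.08 once genes with 0 counts throughout a group stood at their bound. Between appetitive and neutral libraries it was -0.13, or -0.75 with bounds, beside -0.91 over all genes, between aversive and neutral 0.62 beside -0.15, and between appetitive and aversive -0.72 beside -0.48. The medians of -0.99 and -0.75 left out 1 of the 9 genes, Crhr1. Between appetitive and neutral it was at the floor in both groups. Between appetitive and mock its mock mean lay below the appetitive floor of 0.235 CPM, so no bound could be given.

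**Figure D1:**
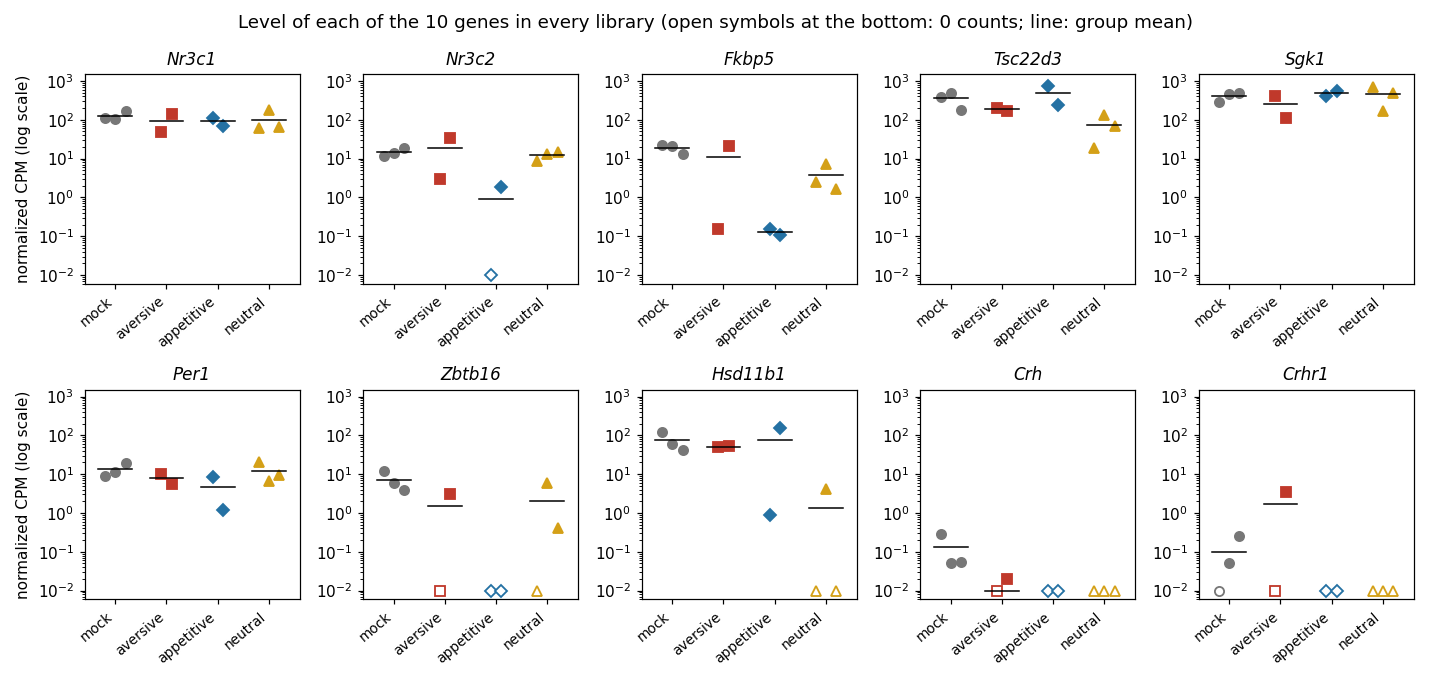
Normalized CPM on a log scale of each of the 10 genes in the 10 libraries by group (circles mock, squares aversive, diamonds appetitive, triangles neutral), with a line at the group mean and open symbols at the bottom for 0 counts. Nr3c1 lay between 49.2 and 175 CPM in every library, whereas Fkbp5 lay between 0.105 and 22.1 CPM and was lowest in both appetitive libraries and aversive 1.

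Nr3c1 (ENSMUSG00000024431, chr18:39410545-39519421 in GRCm38) encodes the glucocorticoid receptor. Its level was 114, 106 and 167 CPM in mock, 49.2 and 142 CPM in aversive, 114 and 68.4 CPM in appetitive, and 60.96, 175 and 64.6 CPM in neutral libraries. Every pair of groups overlapped, and the highest library (neutral 2) was 3.55 times the lowest (aversive 1). By group mean the order was mock (129 ± 32.9 CPM, SD, n = 3), neutral (100.1 ± 64.7, n = 3), aversive (95.8 ± 65.8, n = 2) and appetitive (91.4 ± 32.6, n = 2), and no neighbours in that order differed beyond their spread. The comparison with the smallest p was appetitive with mock, at -0.50 log2 (SE 0.780, adjusted p = 0.705, edgeR) and a 95% interval from -2.21 to 1.22. The 12 markers of pericytes and fibroblasts, led by Acta2, summed to 434, 969 and 824 CPM in mock, 323 and 1150.01 CPM in aversive, 304 and 198 CPM in appetitive, and 710.2, 5940 and 2553 CPM in neutral libraries. Neutral 2 was highest for both Nr3c1 and this sum, but mock 2, highest of mock for the sum, was lowest of mock for Nr3c1.

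Nr3c2 (ENSMUSG00000031618, chr8:76899442-77245012), the mineralocorticoid receptor, was more uneven. Its level was 11.7, 14.01 and 18.8 CPM in mock, 3.003 and 34.4 CPM in aversive, 0 and 1.83 CPM in appetitive, and 8.47, 13.2 and 14.7 CPM in neutral libraries. Both appetitive libraries lay below every other library, while the aversive pair differed 11.5-fold and spanned all mock and neutral values. Against aversive libraries the appetitive level differed by -4.33 log2 (SE 2.005, adjusted p = 0.256, edgeR), its comparison with the smallest p. Adjusted p-values over 17 alternatives ran from 0.0371, with DESeq2, to 1.00. Without appetitive 2, which left appetitive 1 with 0 counts as the lone library of its group, adjusted p was 0.044. Without aversive 3 the difference was -1.71 log2, with adjusted p = 0.867. Nr3c2 shares 247 exonic bases with Gm10649 on the other strand, and counting ignored strand, so reads in that stretch could not be assigned.

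The balance of the receptors was compared per length of exon, as CPM per kilobase. Nr3c2 per kilobase was 0.123, 0.156 and 0.134 of Nr3c1 in mock, 0.0724 and 0.287 in aversive, 0 and 0.0318 in appetitive, and 0.165, 0.0896 and 0.271 in neutral libraries. Nr3c1 exceeded Nr3c2 in all 10 libraries, and the ratio was lowest in the appetitive pair, with aversive 1 next. The values of the other groups overlapped.

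Hsd11b1 (ENSMUSG00000016194, chr1:193221634-193264075) encodes the reductase that turns inert 11-dehydrocorticosterone back into corticosterone inside cells. Its level was 120.4, 58.8 and 41.4 CPM in mock, 49.5 and 51.7 CPM in aversive, 0.860 and 151 CPM in appetitive, and 0, 4.08 and 0 CPM in neutral libraries. Neutral libraries lay below every mock and aversive library, with 0 counts in neutral 1 and neutral 3 at total counts above those of all 7 single-end libraries, and 353 counts in neutral 2. The appetitive pair differed 175-fold, so a group mean describes neither library. The log2 fold change was -5.75 between neutral and mock (SE 2.44, adjusted p = 0.3304, edgeR) and 5.80 between appetitive and neutral (SE 2.51, adjusted p = 0.155, edgeR). The latter rested on appetitive 2: without it the value was -0.76 with adjusted p = 0.902, and without neutral 2, which left a neutral group at 0 counts, adjusted p was 0.0359, in a range of 0.00143 to 0.902 over 16 alternatives.

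The 12 astrocyte markers also stood low in the neutral libraries where Hsd11b1 was lowest. They summed to 18618, 7616 and 6455 CPM in mock, 7445 and 9031 CPM in aversive, 6213 and 4419 CPM in appetitive, and 277, 945 and 516 CPM in neutral libraries, led by Aldoc, with Aqp4 and Gjb6 at 0 in neutral 1. Appetitive 1, where Hsd11b1 was nearly absent, had an astrocyte sum in the range of the other single-end libraries, but single markers there went both ways. Gfap (962 CPM) was at its highest of all libraries and Aldh1l1 (9.85 CPM) at its lowest of all. Slc1a3 (448 CPM), Gja1 (256 CPM) and S1pr1 (170 CPM) were at their lowest of the single-end libraries, and the other markers lay between. The 12 microglial markers, led by C1qb, summed to 47.5, 488 and 337 CPM in neutral libraries, with Cx3cr1, C1qc, Siglech and Trem2 at 0 in neutral 1, and to between 1222 and 11489 CPM in the others. The part of these cell types, or of the kit, in the Hsd11b1 levels was not tested.

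Among the induced genes, Fkbp5 (ENSMUSG00000024222, chr17:28399094-28517527) encodes the cochaperone that restrains the receptor. It was at 22.1, 20.7 and 13.3 CPM in mock, 0.150 and 21.4 CPM in aversive, 0.156 and 0.105 CPM in appetitive, and 2.46, 7.32 and 1.61 CPM in neutral libraries. Aversive 1 held 3 counts and each appetitive library 2 counts, whereas aversive 3 held 1070. The appetitive libraries thus lay below all mock and neutral libraries, neutral below mock, and the aversive pair, 143-fold apart, overlapped with every other group. Pooled over libraries, mock exceeded appetitive by a ratio of 131, with a 95% exact counting interval of 50.98 to 480.3. For neutral over appetitive the ratio was 32.0 (12.5 to 118), and for aversive over appetitive 122 (47.7 to 450).

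In the fit, Fkbp5 differed by -7.14 log2 between appetitive and mock (SE 2.30, adjusted p = 0.116, edgeR), beside a median of -1.45 over all genes. Between appetitive and neutral it was -4.85 (SE 2.07, adjusted p = 0.151, edgeR), and between appetitive and aversive -6.35 (SE 2.26, adjusted p = 0.169, edgeR). All 3 differences passed 0.05 with DESeq2, at adjusted p of 0.000318, 0.0248 and 0.00394. They also passed it in edgeR without aversive 1, at 0.0254, 0.0494 and 0.0386, and the difference from mock passed without aversive 3, at 0.0282. The difference from aversive rested on aversive 3, without which it was -0.22 log2 at adjusted p = 1.00. Those leave-one-out fits called more genes in all, for example 7.56% of the genes tested between appetitive and mock without aversive 1. Over the alternatives tried, adjusted p ran from 0.000318 to 0.276 against mock, 0.0248 to 0.324 against neutral and 0.00394 to 1.00 against aversive.

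Zbtb16 (ENSMUSG00000066687, chr9:48654297-48836222), a zinc finger transcription factor that glucocorticoids strongly induce in many cells, had a pattern close to that of Fkbp5. Its level was 11.9, 5.89 and 3.87 CPM in mock, 0 and 3.09 CPM in aversive, 0 in both appetitive libraries, and 0, 5.79 and 0.398 CPM in neutral libraries. All aversive and appetitive libraries lay below mock, and neutral overlapped with it. Against mock the appetitive level was at least 30.8-fold lower, taking the floor of 3 counts per library, and edgeR gave adjusted p = 0.187. That p ran from 0.0118, with DESeq2, to 0.336 over 17 alternatives and was 0.0417 in a fit of the mock and appetitive libraries alone. No fitted fold change is read from a group at 0.

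Nr3c2, Fkbp5 and Zbtb16 were low in the same libraries, which were also those with the fewest detected genes. The 3 libraries lowest for Nr3c2 and for Fkbp5 were appetitive 1, appetitive 2 and aversive 1, and Zbtb16 was at 0 in these 3 and in neutral 1. At most 3 counts were found for Fkbp5 in all 3 of these libraries and for Nr3c2 in appetitive 1 only, with 35 counts in appetitive 2 and 60 in aversive 1. Of the 4170 genes with a mock mean of 10 to 30 CPM, the range that holds Fkbp5 and Nr3c2, 45.4% had at most 3 counts in appetitive 1, 34.0% in appetitive 2 and 18.99% in aversive 1, beside 4.53% in aversive 3 and 8.20%, 3.74% and 3.29% in the neutral libraries. Both appetitive libraries were at or under 3 counts for 19.3% of those genes, and both together with aversive 1 for 6.69%. With a mock mean of 5 to 30 CPM, which takes in Zbtb16, these shares were 25.9% and 10.9% of 6129 genes. The part of detection in the levels of Nr3c2, Fkbp5 and Zbtb16 was not tested.

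**Figure D2:**
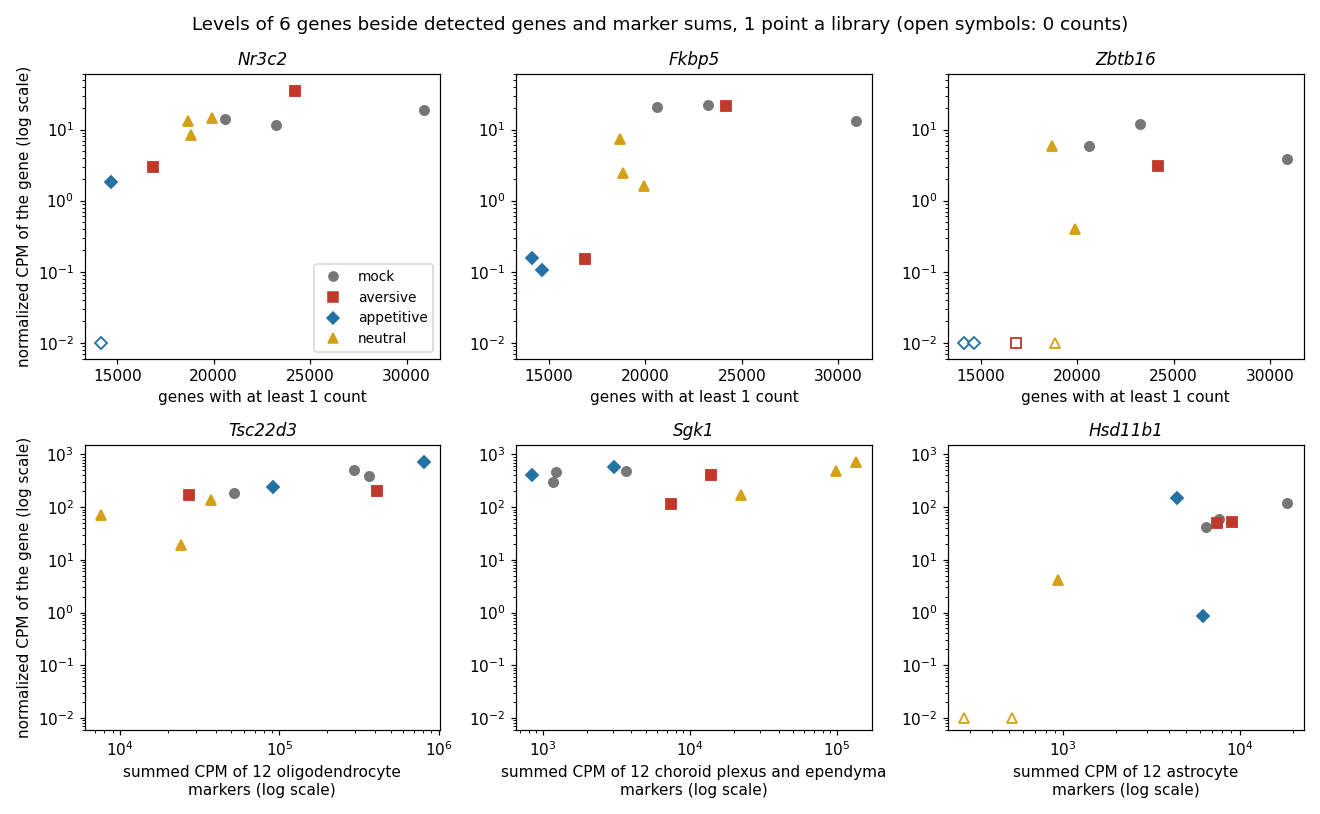
Normalized CPM of 6 of the genes on a log scale, 1 point per library, against the number of genes with at least 1 count (top row) or the summed CPM of 12 cell type markers on a log scale (bottom row), with open symbols for 0 counts. The 3 libraries with 14144 to 16849 detected genes were the lowest for Nr3c2 and Fkbp5, and Tsc22d3 was highest in the library with an oligodendrocyte sum of 807378 CPM.

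Tsc22d3 (ENSMUSG00000031431, chrX:140539528-140600659) encodes GILZ, a glucocorticoid-induced leucine zipper protein with anti-inflammatory actions. Its level was 396, 495 and 184 CPM in mock, 202 and 168 CPM in aversive, 723 and 245 CPM in appetitive, and 18.96, 135 and 71.3 CPM in neutral libraries. In normalized CPM each neutral library lay below every library of the other groups. By mean the order was appetitive (484 ± 338 CPM, n = 2), mock (358 ± 159, n = 3), aversive (185 ± 23.4, n = 2) and neutral (75.1 ± 58.2, n = 3), of which appetitive and mock, and mock and aversive, overlapped. Both statements depend on the scaling, as the TMM factor was 0.480 in appetitive 1, where the top 10 genes held 53.2% of counts. Raw counts were 9513 of 20505550 in mock 2 and 9246 of 26647573 in appetitive 1. They were 11697 of 67650693 in neutral 2 and 4027 of 27159427 in aversive 1. On plain totals mock 2 thus exceeded appetitive 1, mock exceeded appetitive by mean, and neutral 2 exceeded aversive 1.

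The log2 fold change of Tsc22d3 was 2.69 between appetitive and neutral (SE 0.839, adjusted p = 0.0731, edgeR), the smallest adjusted p among the 9 genes, with both appetitive libraries above all 3 neutral ones. It was -2.25 between neutral and mock (SE 0.780, adjusted p = 0.224, edgeR). DESeq2 gave adjusted p = 0.0166 for appetitive against neutral, edgeR without a filter 0.019, and the range over 17 alternatives was 0.0166 to 0.334. The 12 oligodendrocyte markers, led by Mbp and with none at 0, summed to 367330, 295814 and 52251 CPM in mock, 412067 and 27211 CPM in aversive, 807378 and 91971 CPM in appetitive, and 24162, 37242 and 7593 CPM in neutral libraries. In normalized CPM appetitive 1 was highest for both Tsc22d3 and this sum, each raised by the low TMM factor of that library. Within each group of 3 the library lowest for Tsc22d3 was mock 3, which was also lowest for the sum, and neutral 1, which was not. The part of oligodendrocyte RNA in the Tsc22d3 level was not tested.

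Sgk1 (ENSMUSG00000019970, chr10:21882184-21999903) encodes a serum- and glucocorticoid-regulated kinase that acts on ion channels and transporters. It was at 294, 459 and 481 CPM in mock, 409 and 112 CPM in aversive, 404 and 565 CPM in appetitive, and 719, 167 and 481 CPM in neutral libraries. All groups overlapped, in contrast to Tsc22d3, and the spread within the neutral group (4.30-fold) exceeded every difference between group means. The comparison with the smallest p was appetitive with aversive, at 0.90 log2 (SE 0.816, adjusted p = 0.635, edgeR, 95% interval -0.90 to 2.69).

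The neutral libraries ranked alike for Sgk1 and for markers of choroid plexus and ependyma. The 12 markers, nearly all of it Ttr, summed to 133821, 22151 and 97805 CPM in neutral 1, 2 and 3, where Sgk1 was 719, 167 and 481 CPM. Elsewhere the sums were 1179, 1220 and 3682 CPM in mock, 13964 and 7440.2 CPM in aversive, and 849 and 3057 CPM in appetitive libraries. Appetitive 2, with a low sum, had the second highest Sgk1 level. Otx2, Enkur and Pifo were at 0 in aversive 1, Clic6 and Pifo in appetitive 2, and 6 of the 12 in appetitive 1 (Otx2, Foxj1, Tmem212, Ccdc153, Enkur, Pifo). The part of this tissue in the Sgk1 level was not tested.

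Per1 (ENSMUSG00000020893, chr11:69095217-69109960), a clock gene that glucocorticoids and neuronal activity both induce, was low throughout. Its level was 8.72, 11.2 and 19.9 CPM in mock, 10.1 and 5.61 CPM in aversive, 8.37 and 1.205 CPM in appetitive, and 20.8, 6.84 and 9.34 CPM in neutral libraries. The appetitive libraries both lay below mock, appetitive 1 by little, and all other pairs of groups overlapped. The log2 fold change between appetitive and mock, -1.47 (SE 1.34, adjusted p = 0.489, edgeR, 95% interval -4.43 to 1.48), lay beside a median of -1.45 for every gene tested. Leaving out each library in turn moved the Per1 value between -3.66 and -0.85 and that median between -4.77 and -0.78.

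Crh (ENSMUSG00000049796, chr3:19693401-19695396), the hypothalamic releasing hormone that some hippocampal interneurons also make, was barely detected. It had 7, 1 and 4 counts in mock, 0 and 1 in aversive, and 0 counts in all 5 appetitive and neutral libraries, and was not tested. The highest level was 0.279 CPM in mock 1, while 0 counts allow up to 0.235 CPM in appetitive 1 and 0.157 CPM in appetitive 2, but only 0.0347 to 0.0473 CPM in the neutral libraries. The 12 interneuron markers, led by Npy, summed to between 4.75 and 116 CPM over the libraries, with 9 of 12 at 0 in appetitive 2 and in neutral 1.

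Crhr1 (ENSMUSG00000018634, chr11:104132855-104175523), the main receptor for that hormone in the forebrain, was found in essentially a single library. It had 174 counts in aversive 3 (3.49 CPM), 18 in mock 3, 1 in mock 2, and 0 in mock 1, aversive 1 and all 5 appetitive and neutral libraries. Between aversive and neutral the unadjusted p was under 0.05 and the adjusted p was 0.184 in edgeR, with a fitted log2 fold change of 9.29 (SE 3.02) that depends on the prior count. The aversive mean was at least 36.8-fold higher than the neutral floor, but aversive 1 was itself at 0, so the groups overlapped and aversive 3 alone carried the difference.

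Levels of the 10 genes were also compared per kilobase of exon. The mean of the group means was 82.2 CPM per kilobase for Sgk1, 63.5 for Tsc22d3, 13.5 for Nr3c1, 11.8 for Hsd11b1, 1.80 for Nr3c2, 1.70 for Per1, 0.882 for Fkbp5, 0.512 for Zbtb16, 0.187 for Crhr1 and 0.0263 for Crh. Neighbours such as Sgk1 and Tsc22d3, Nr3c1 and Hsd11b1, or Nr3c2 and Per1 changed places between groups. In neutral libraries Sgk1 stood at 92.97 and Tsc22d3 at 17.3 CPM per kilobase, and in appetitive libraries at 98.9 and 112.

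The induced genes did not move as a unit. Over the 10 libraries, which share groups and differ in depth, Pearson's r of log2 (CPM + 0.5) was 0.915 between Fkbp5 and Zbtb16, 0.814 between Nr3c2 and Fkbp5 and 0.741 between Nr3c1 and Zbtb16, but 0.05 between Fkbp5 and Tsc22d3, -0.21 between Tsc22d3 and Sgk1 and -0.62 between Nr3c1 and Sgk1. These are descriptions without a test. Among all tested genes, those most like each gene by the same measure were Col6a2 and Cxcl12 for Nr3c1 (0.916 and 0.904), Gid8 and Blcap for Nr3c2 (0.973 and 0.961), Gm29170 and Trmt10a for Fkbp5 (0.971 and 0.968), and Gng12 and Aif1l for Tsc22d3 (0.967 and 0.967). For Sgk1 they were Rybp and Mpp1 (0.887 and 0.886), for Per1 Zfp385a and Pnpla6 (0.953 and 0.913), for Zbtb16 Panx2 and Ppp1r3d (0.974 and 0.972), and for Hsd11b1 Pcdh17 and Nrcam (0.965 and 0.956). Crhr1 was most like Gm37673 and Gm43527 (1.000 and 0.999), a likeness set by aversive 3 alone.

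Promoter sequences were taken from RefSeq (GRCm38.p6), which gave 15 windows of 250 bases before to 50 after a transcript start for 7 of the 10 genes. Nr3c1, Zbtb16 and Crh had none. The receptor's response element is a pair of inverted hexamers, searched as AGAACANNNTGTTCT, and each hexamer was also searched alone as TGTTCT on both strands (AGAACA on the other), which includes the hexamers of any full element. A lone hexamer was found in 4 of the 15 windows and in 18.97% of all 32851 promoter windows of that length. The full element was found in 1 of the 15, a window of Sgk1, and in only 3 windows of all (0.00913%). The clock E-box CACGTG occurred in 3 of the 15 windows, of Sgk1, Per1 and Fkbp5, and in 7.15% of all.

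All 4 windows with a hexamer are shown, and they belong to Sgk1 and Tsc22d3, the only 2 of the 7 genes with one. Capitals mark each hexamer, 5′ to 3′ on the gene's strand, and the third Sgk1 window holds the full element as its last pair. A match describes letters, not binding.
Sgk1 chr10:21881934-21882233 (+ strand): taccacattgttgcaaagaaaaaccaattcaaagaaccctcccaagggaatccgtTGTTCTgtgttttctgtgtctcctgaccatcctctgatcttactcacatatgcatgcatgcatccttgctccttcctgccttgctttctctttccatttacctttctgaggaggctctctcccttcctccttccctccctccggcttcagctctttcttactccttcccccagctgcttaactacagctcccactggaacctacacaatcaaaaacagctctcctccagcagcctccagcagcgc
Sgk1 chr10:21991973-21992272 (+ strand): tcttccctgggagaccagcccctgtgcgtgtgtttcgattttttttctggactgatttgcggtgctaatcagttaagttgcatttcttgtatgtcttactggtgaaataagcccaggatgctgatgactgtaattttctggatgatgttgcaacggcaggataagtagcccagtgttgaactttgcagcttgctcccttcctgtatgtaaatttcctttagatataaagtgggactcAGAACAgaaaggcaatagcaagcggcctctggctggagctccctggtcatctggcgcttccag
Sgk1 chr10:21993640-21993939 (+ strand): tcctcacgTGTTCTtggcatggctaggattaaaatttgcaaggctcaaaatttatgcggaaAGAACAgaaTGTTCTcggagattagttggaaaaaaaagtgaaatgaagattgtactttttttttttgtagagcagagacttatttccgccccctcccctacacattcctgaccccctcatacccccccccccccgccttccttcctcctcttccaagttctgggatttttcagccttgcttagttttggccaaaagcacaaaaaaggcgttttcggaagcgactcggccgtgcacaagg
Tsc22d3 chrX:140600473-140600772 (- strand): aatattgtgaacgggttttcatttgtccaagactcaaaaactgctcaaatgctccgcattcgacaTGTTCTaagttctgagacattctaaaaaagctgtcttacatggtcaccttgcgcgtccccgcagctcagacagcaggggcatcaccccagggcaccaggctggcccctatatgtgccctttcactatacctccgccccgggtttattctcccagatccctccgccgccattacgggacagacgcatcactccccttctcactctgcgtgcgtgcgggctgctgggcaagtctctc

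The other genes of the pathway were described in 7 lists holding 103 genes, of which 85 were tested. EdgeR called 7 of the 85 between appetitive and neutral, beside 6.17% of all tested genes, 1 between appetitive and aversive, beside 1.8%, 1 between appetitive and mock, beside 1.98%, and 0 in the other comparisons. A fit of the appetitive and neutral libraries alone called 0 of all its genes and so ended each of those 7 calls. In the corticotropin-releasing hormone family and its relatives only 4 of 14 genes were abundant enough to be tested, and edgeR called 1, Crhr2, lower in appetitive than in neutral libraries. Crhr2, the receptor that prefers urocortins, was at 1.31, 0.0521 and 3.73 CPM in mock, 3.65 and 0.0601 CPM in aversive, 0 in both appetitive, and 105, 11.7 and 89.5 CPM in neutral libraries. Neutral libraries thus stood above all others, in the order neutral 1, neutral 3, neutral 2 of the choroid plexus sums given for Sgk1, and the part of that tissue was not tested. The appetitive level was at least 293-fold lower (adjusted p = 0.0476, edgeR), a call lost without any single mock, appetitive or neutral library (0.0588 to 0.112), in a range of 4.82e-06 to 0.112 over 16 alternatives.

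Crhbp, which binds and neutralizes the hormone, had 34, 44 and 7 counts in mock and 0 in every other library, at least 26.4-fold lower in neutral than in mock libraries (adjusted p = 0.184, edgeR), a difference that DESeq2 called (0.0233, in a range of 0.0233 to 0.396). Adcyap1r1, the receptor of the stress peptide PACAP and the most abundant of this list per kilobase, was at 228, 33.5 and 117 CPM in mock and 0, 11.2 and 0.0128 CPM in neutral libraries. The fitted difference there was -5.07 log2 (SE 2.25, adjusted p = 0.356, edgeR), called without a filter (0.00448, in a range of 0.00448 to 0.7599). The other 10 genes, among them the urocortins, vasopressin and oxytocin, did not pass the filter.

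Chaperones and cochaperones fold and hold the receptor. All 14 were tested and 0 were called in any of the 6 comparisons by edgeR, with 0 at an unadjusted p under 0.05 in each, beside 9.96% to 29.3% of all tested genes. The most abundant per kilobase, Hsp90ab1, was at 827, 1386 and 789 CPM in mock, 970.4 and 608 CPM in aversive, 1531 and 1219 CPM in appetitive, and 811, 778 and 962 CPM in neutral libraries, and both appetitive libraries exceeded both aversive ones (log2 fold change 0.80, SE 0.563, adjusted p = 0.482, edgeR). The smallest p-values belonged to Ppp5c, lower by mean in appetitive (40.1 CPM) than in neutral libraries (144 CPM, log2 fold change -1.84, SE 0.900, adjusted p = 0.193), and Ptges3, the p23 cochaperone, at 56.9 and 17.9 CPM in the same comparison (1.67, SE 0.861, adjusted p = 0.213). Next was Cdc37, at 240 CPM in appetitive and 106 CPM in mock (1.17, SE 0.679, adjusted p = 0.290). Ppp5c was called without appetitive 2 (0.0249), in a range of 0.0249 to 0.390 over 17 alternatives, and Ptges3 by DESeq2 (0.0128), in a range of 0.0128 to 0.504. The value for Cdc37 rested on appetitive 1, without which it was -0.29.

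Of 12 receptor coregulators edgeR called 0 in any comparison, beside 0% to 6.17% of all tested genes, with 0 to 3 at an unadjusted p under 0.05. The 3 were lower in appetitive than in neutral libraries, where 29.3% of all tested genes had such a p. Ep300, a histone acetyltransferase, was at 59.5 and 11.98 CPM in aversive but 0.391 and 0.157 CPM in appetitive libraries (log2 fold change -7.03, SE 1.74, adjusted p = 0.0724, edgeR). Nrip1, a corepressor, was at 30.8, 26.98 and 101 CPM in mock and 0.704 and 0 CPM in appetitive libraries (-7.26, SE 1.89, adjusted p = 0.0713). Hdac3, the most abundant per kilobase, was at 4.14 and 20.95 CPM in appetitive and 357, 79.2 and 171 CPM in neutral libraries (-4.01, SE 1.34, adjusted p = 0.0858). DESeq2 called each of them. Leaving out a library called Ep300 without aversive 3 (0.035999), Hdac3 without aversive 1 (0.0347) or aversive 3 (0.0372), and Nrip1 without aversive 1 (0.0442), aversive 3 (0.0494), appetitive 1 (0.0332) or appetitive 2 (0.0452). Over 17 alternatives each, adjusted p ran from 4.81e-06 to 0.711 for Ep300, 0.0143 to 0.238 for Hdac3 and 8.13e-06 to 0.192 for Nrip1. The appetitive libraries had the fewest detected genes, whose part was not tested.

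Corticosteroid metabolism and transport was represented by 5 tested genes of 13. Of these, edgeR called 0 in all 6 comparisons, beside 0% to 6.17% of all tested genes. In each comparison 0 or 1 had an unadjusted p under 0.05, beside 9.96% to 29.3% of all. The enzymes of adrenal steroid synthesis and Hsd11b2 did not pass the filter. H6pd, which supplies Hsd11b1 with its cofactor NADPH, was at 2.35, 7.71 and 12.8 CPM in mock, 0.25 and 0.02004 CPM in aversive, 0.469 and 0 CPM in appetitive, and 6.23, 8.71 and 6.12 CPM in neutral libraries. Aversive and appetitive libraries lay below all mock and neutral ones, with a log2 fold change between aversive and mock of -5.85 (SE 2.34, adjusted p = 0.480, edgeR) that DESeq2 called at adjusted p = 0.00296, in a range of 0.00296 to 0.783. Abcb1a, a steroid exporter at the blood-brain barrier and the most abundant per kilobase, overlapped between neutral (0, 94.2 and 36.2 CPM) and mock libraries (25.9, 132 and 113 CPM), at -1.06 log2 (SE 1.85, adjusted p = 0.915). Its paralog Abcb1b (8.56 between appetitive and neutral, SE 2.92, adjusted p = 0.0903) and the cholesterol carrier Star (2.86, SE 2.26, adjusted p = 0.399) each had their appetitive signal in a single library, 20.9 CPM in appetitive 1 and 14.4 CPM in appetitive 2, with 0 in the other. Without that library the appetitive group was at 0 counts for either gene, and without appetitive 2 Abcb1b was called (0.0354, in a range of 0.00114 to 0.626 over 15 alternatives).

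Of 24 other glucocorticoid-induced genes edgeR called 2, Mt1 and Mt2, both higher in appetitive than in neutral libraries, where 6.17% of all tested genes were called. Metallothioneins bind zinc and copper and respond to glucocorticoids and metals. Mt1, the most abundant of the list per kilobase, was at 982, 717 and 389.7 CPM in mock, 953 and 1743 CPM in aversive, 943 and 929 CPM in appetitive, and 261, 109 and 161 CPM in neutral libraries. Every neutral library lay below every other library for Mt1, and the same held for Mt2, at 7.73, 4.56 and 6.19 CPM in neutral and 30.7 to 130 CPM elsewhere. Mt2 shares 432 of its 588 exonic bases with Gm45774 on the other strand. Counting ignored strand, so reads in that stretch could not be assigned. Between appetitive and neutral the log2 fold change was 2.40 for Mt1 (SE 0.606, adjusted p = 0.0431, edgeR) and 3.89 for Mt2 (SE 0.800, adjusted p = 0.0245). Between aversive and neutral it was 2.93 (SE 0.614, adjusted p = 0.107) and 4.11 (SE 0.806, adjusted p = 0.101), so the aversive values were as large and were not called.

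The Mt1 call was lost without any single mock, appetitive or neutral library (adjusted p 0.0615 to 0.118), and the Mt2 call without mock 1, mock 2 or any neutral library (0.0544 to 0.0893). Both calls were also lost with library size as the only scaling, and that of Mt1 with a filter of at least 10 counts in every library. Conversely, both genes passed between aversive and neutral without appetitive 1 or appetitive 2, at 0.0404 and 0.0436 for Mt1 and 0.0239 and 0.0247 for Mt2. DESeq2 and edgeR without a filter also called both, and a filter of at least 10 counts in every library called Mt2, in ranges of 0.00292 to 0.323 for Mt1 and 1.28e-06 to 0.323 for Mt2. Htra1, a secreted protease, was also lowest in the neutral libraries, at 1332, 444 and 403 CPM in mock and 15.8, 163 and 32.6 CPM in neutral libraries (log2 fold change -3.37, SE 0.892, adjusted p = 0.174, edgeR), called by DESeq2 and without a filter in a range of 0.000446 to 0.372. As for Tsc22d3 and Hsd11b1, these levels were low where the astrocyte and microglial sums were low and the kit was different, which cannot be told apart from the neutral experience. The list's median log2 fold change was 0.86 between appetitive and neutral, beside -0.91 over all tested genes, and 0.05 between aversive and neutral, beside -0.15.

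Clock genes that work with Per1 held 2 called genes of 16, both transcription factors of the activating arm. Both were called between appetitive and neutral (6.17% of all tested genes), and 1 each between appetitive and mock (1.98%) and between appetitive and aversive (1.8%). Arntl (Bmal1) was at 32.0, 31.5 and 32.5 CPM in mock, 0.05004 and 0.461 CPM in aversive, 0 and 0.0524 CPM in appetitive, and 21.9, 67.6 and 14.9 CPM in neutral libraries. Aversive and appetitive libraries thus lay far below mock and neutral, and the mock libraries were close to each other. Npas2, which can take the place of Clock as partner of Arntl, was instead at 16.96 and 16.7 CPM in aversive but 0.0782 and 0.0524 CPM in appetitive, 3.74, 10.8 and 7.39 CPM in mock, and 11.03, 44.3 and 31.2 CPM in neutral libraries. Each appetitive library held 1 count of Npas2. Arntl had 1 count in aversive 1, 23 in aversive 3, and 0 and 1 in the appetitive libraries. Aversive 1 and both appetitive libraries had the fewest detected genes, whose part in these levels was not tested.

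Against neutral libraries the appetitive log2 fold change was -10.08 for Arntl (SE 2.04, adjusted p = 0.0239, edgeR) and -8.75 for Npas2 (SE 1.74, adjusted p = 0.0228). Pooled neutral counts exceeded appetitive ones by a ratio of 1175 for Arntl (95% exact counting interval 211 to 46397) and 487 for Npas2 (135 to 4026). Arntl was also called between appetitive and mock (-9.96, SE 2.03, adjusted p = 0.0382) and Npas2 between appetitive and aversive (-7.97, SE 1.71, adjusted p = 0.0435), with pooled ratios of 1028 (184 to 40632) for mock over appetitive and 267 (73.8 to 2208) for aversive over appetitive. The calls against neutral were lost without any mock library or neutral 3 (0.0582 to 0.0611 for Arntl, 0.054 to 0.0699 for Npas2), and the other pair without any mock or neutral library or appetitive 1 (0.0597 to 0.110 and 0.0594 to 0.112). The latter calls also ended with only the 7 single-end libraries, and that of Npas2 with DESeq2's size factors, with library size alone and with only the groups compared, at adjusted p of up to 0.711. Bhlhe40, the most abundant of the list per kilobase, was at 101, 439 and 56.8 CPM in mock and 7.82 and 8.96 CPM in appetitive libraries (-4.57, SE 1.12, adjusted p = 0.0635), a difference called without aversive 1 or aversive 3 (0.0379 and 0.0421) in a range of 0.000452 to 0.165. Among all 16 genes the median log2 fold change between appetitive and mock was -1.46, beside -1.45 for every gene tested.

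Relatives of Sgk1 and Tsc22d3 and targets of SGK included 2 called genes of 10, Ndrg1 and Tsc22d4, both higher in appetitive than in neutral libraries, where 6.17% of all tested genes were called. Ndrg1, a phosphorylation target of the SGK kinases, was at 763, 631 and 346 CPM in mock, 659 and 335 CPM in aversive, 852 and 616 CPM in appetitive, and 48.2, 108 and 59.5 CPM in neutral libraries. Tsc22d4, a relative of Tsc22d3, was at 345, 238 and 186 CPM in mock, 434 and 454 CPM in aversive, 456 and 1039 CPM in appetitive, and 55.3, 183 and 46.3 CPM in neutral libraries. In normalized CPM, a neutral library never exceeded a library of another group for either gene, as for Tsc22d3. Of the 12 oligodendrocyte markers, whose sums stand beside Tsc22d3, all 12 were higher in appetitive than in neutral libraries (median log2 fold change 3.07), and of the 12 astrocyte markers, whose sums stand beside Hsd11b1, also 12 (median 3.78). Their part in the levels of Ndrg1 and Tsc22d4 was not tested. The log2 fold change was 3.35 for Ndrg1 (SE 0.637, adjusted p = 0.0204, edgeR) and 2.98 for Tsc22d4 (SE 0.730, adjusted p = 0.0401).

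The Ndrg1 call was lost without mock 1, mock 2, neutral 1 or neutral 3 (adjusted p 0.0533 to 0.0767), and the Tsc22d4 call without any mock library, appetitive 2, neutral 1 or neutral 3 (0.07 to 0.113). The latter was also lost with library size alone and with at least 10 counts in every library. Sgk2, a kinase related to Sgk1, was present in aversive 3 (52.4 CPM), appetitive 2 (48.5 CPM) and mock libraries (8.76, 18.3 and 17.3 CPM) but had 1 count in aversive 1, 0 in appetitive 1, and 0, 6 and 0 in neutral libraries. Its smallest p was between aversive and neutral (adjusted p = 0.171, edgeR), where aversive 3 alone carried the difference. DESeq2 and edgeR without a filter called it, in a range of 0.000824 to 0.915. Ndrg2, the most abundant per kilobase, was at 3461, 1283 and 597 CPM in mock and 662, 385 and 557 CPM in neutral libraries (log2 fold change -1.74, SE 0.719, adjusted p = 0.314).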

How the data were processed

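RNA was measured by RNA-seq in 10 libraries. Reads, cut to their first 40 bp, were aligned by the authors to mm10 (GRCm38) using STAR. They counted reads per Ensembl gene with featureCounts of Subread, ignoring strand, and deposited raw counts without normalization. Symbols, positions and exon lengths came from GENCODE M21, to which 53274 of 53379 identifiers were matched.

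Tests used edgeR 4.0.16 in R 4.3.3: TMM scaling, filterByExpr (19754 genes kept), and a quasi-likelihood model of 4 groups on all 10 libraries without covariates. Tests were two-sided, with Benjamini-Hochberg adjustment of p over all 19754 genes, and standard errors were derived from the F statistics. A fold against a group with 0 counts throughout is a bound against its highest floor of 3 counts per library. With 1 to 3 counts, an exact conditional interval of pooled counts is given. Alternatives were DESeq2 1.42.0, other scalings and filters, fewer libraries, and the replicate number as a block. The steps were tested on simulated data, in which DESeq2 called more unchanged genes than changed ones and edgeR did not. There, edgeR missed most of the changed genes and called fewer of them than DESeq2. Python 3.11.15 with pandas 2.3.3 wrote the tables, and matplotlib 3.10.9 drew the figures.

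The 10 genes and all lists were chosen with earlier results of these data known. All 10 were named, with test values where the unadjusted p was under 0.05 and for each gene's smallest p; from each list, the 3 genes with the smallest p and the most abundant per kilobase. The marker lists set beside single genes, the expression range used for dropout, and other genes called in those lists were chosen after their values were seen.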

Additional observations from a re-analysis of the deposited data

Results flagged for a closer look

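Npas2, a clock gene, differed between the tagged groups. Its log2 fold change between appetitive and aversive libraries was -7.97 (SE 1.71, adjusted p = 0.0435, edgeR's quasi-likelihood test with Benjamini-Hochberg adjustment), with 1 count in each appetitive library and 339 and 832 counts in the aversive ones, a pooled ratio of 267 with a 95% exact counting interval of 73.8 to 2208. Both aversive libraries also lay above every mock library and both appetitive ones below, at 16.96 and 16.7 CPM and 0.0782 and 0.0524 CPM beside 3.74, 10.8 and 7.39 CPM. The call was lost without appetitive 1 or any mock or neutral library, with adjusted p of 0.0594 to 0.112. It was also lost with DESeq2's size factors, library size alone, the replicate block, only the groups compared and only the single-end libraries, so 5 of 17 alternatives kept it, at adjusted p of 8.51e-07 to 0.711 over all 17.

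Bhlhe40, a repressor in the clock, stood at 96.8 and 76.03 CPM in aversive and 7.82 and 8.96 CPM in appetitive libraries, on opposite sides of every neutral library (23.8, 52.8 and 22.2 CPM). The direct comparison gave -3.36 log2 (SE 1.09, adjusted p = 0.143, edgeR), which missed the threshold, and the opposite directions against neutral were not tested as such. The appetitive libraries had the fewest detected genes, whose part in both differences was not tested. None of the 10 glucocorticoid and stress hormone genes met either condition.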

How the results depend on the processing

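The 10 glucocorticoid and stress hormone genes gave 0 calls in each of the 6 comparisons with edgeR, and the count remained 0 with DESeq2's size factors, library size alone, at least 10 counts in every library (4 genes tested) and the replicate block, and in the 3 comparisons that the single-end libraries allow. DESeq2's Wald test called 3 between appetitive and neutral (Fkbp5, Tsc22d3, Hsd11b1, beside 29.0% of all genes), 2 between appetitive and aversive (Nr3c2, Fkbp5, beside 23.0%) and 3 between appetitive and mock (Nr3c2, Fkbp5, Zbtb16, beside 28.0%), and 0 in the others. Without a filter edgeR called 1 between aversive and neutral (Hsd11b1, beside 2.45%), 2 between appetitive and neutral (Tsc22d3, Hsd11b1, beside 7.19%) and 1 between neutral and mock (Hsd11b1, beside 1.47%). With only the groups compared it called 2 between appetitive and mock (Fkbp5, Zbtb16, beside 21.8%). Leaving out each mock or neutral library in turn gave 0 calls, except Hsd11b1 between appetitive and neutral without neutral 2, beside 4.12% of all genes. Leaving out an aversive or appetitive library left 1 library in its group, and calls from such fits are given above with Fkbp5 and Nr3c2. Between appetitive and mock, Fkbp5 differed by -7.36 log2 without aversive 1 and by -7.16 without aversive 3. A lone remaining library is assumed to vary like the other groups. The cause was not tested.

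With the replicate block, 0 of the 10 genes were called in each comparison, and 73 of all tested genes between appetitive and neutral instead of 1218. The replicate block ended every call named in the 7 lists: Crhr2, Mt1, Mt2, Ndrg1, Tsc22d4, and Arntl and Npas2 in both of their comparisons. Deviations of same-numbered libraries correlated at -0.06 to 0.19, and those of other pairs at -0.16 to 0.15, values that mirror each other in groups of 2 libraries, so this does not settle whether equal numbers mark a shared batch. The paper's Reporting Summary states that the RNA-seq had 3 replications and that batch effects were handled, without linking them to these numbers.

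Genes called in all moved far more than 1.5-fold. Over the alternatives they ranged from 0 to 3388 between aversive and neutral (8 in the main analysis), 0 to 6053 between appetitive and neutral (1218), 0 to 3951 between appetitive and aversive (356), 0 to 1476 between aversive and mock (0), 0 to 4803 between appetitive and mock (391) and 0 to 1589 between neutral and mock (17), the highest each time with DESeq2. Genes called in the 7 lists ranged from 0 to 12, 23, 11, 3, 14 and 7 in these comparisons (0, 7, 1, 0, 1 and 0). The median of all genes between appetitive and mock was -1.17 with DESeq2's size factors and -1.93 with library size alone, beside -1.45. It was 0.20 among genes with at least 10 counts in every library, -0.74 in DESeq2, -0.78 without mock 3, -3.80 without appetitive 1 and -4.77 without appetitive 2.

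The log2 fold changes with printed tests were compared with their values under the alternatives, except that of Bhlhe40 between appetitive and aversive. Under an alternative, 542 values kept direction and side of the threshold, 79 no longer passed it, 57 newly passed it and 4 changed direction. Those 4 arose from leaving out a library: over leave-one-out fits, the log2 fold change between appetitive and neutral was -0.76 to 14.58 for Hsd11b1, -3.38 to 9.95 for Abcb1b and -8.51 to 3.77 for Star, and between appetitive and mock -0.29 to 1.63 for Cdc37. The values 14.58, -3.38 and -8.51 were fitted with a group at 0 counts, so they are set by the prior count and neither their size nor their direction is read. Counts at or under 3 in several libraries limit what can be read of Crh, Crhr1, Zbtb16 and Fkbp5. The part of depth in those counts was not tested.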
